A study of Mus musculus with 3 samples.

Results

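Cd68, Adgre1 and Cd14 are 3 genes widely used as general markers of macrophages, and their levels were read on the arrays of a mouse lung study. Every probe set whose gene symbol in the authors' deposited comparison tables was Cd68, Emr1 (the older name of Adgre1) or Cd14 was taken, which gave 3 probe sets, 1 for each gene, of 45101 on the array. Those tables hold 4310 probe sets, each past 2-fold in some comparison, and name 2944 genes, so that a gene with a listed probe set differed somewhere, and other probe sets of these genes, if the array holds any, are not analysed here. The study had 3 arrays, 1 for each mouse, and all lungs were taken at an age of 16 weeks. The wild type mouse gave normal lung (wild type lung). A mouse of the genotype KA/KA-Lori-Ikkα gave lung squamous cell carcinoma mixed with neighbouring tissue (tumour lung). Another mouse of that genotype, treated to deplete macrophages, gave lung with some inflammation and without observed tumour (depleted lung). The agent and timing of the treatment are not given in the labels. In this line KA is a kinase-dead allele of Ikkα, a kinase of the NF-kB pathway, and Lori-Ikkα is a transgene under the loricrin promoter, which is active in stratified epithelium of the skin, so both mutant mice carried the allele in the whole body and the transgene as well. Each group had 1 array, so no value has an error and no test was made, and every difference below describes these arrays. In RNA of whole tissue, fewer cells of a type and less RNA per cell cannot be told apart.

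CD68 is a heavily glycosylated protein of the LAMP family that sits mainly in late endosomes and lysosomes of macrophages and other phagocytes. ADGRE1 is an adhesion G protein-coupled receptor on the surface of most mouse tissue macrophages, and eosinophils carry it too. CD14 is a surface co-receptor that hands bacterial lipopolysaccharide to TLR4 and MD-2. It is made by monocytes, macrophages and, at lower levels, neutrophils, and inflammatory stimuli induce it. In the lung, alveolar macrophages patrol the airspace, interstitial macrophages lie in the tissue, and monocytes enter from the blood during inflammation or around a tumour.

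The Cd68 promoter is shown because, of the 3 genes, only Cd68 had a promoter in the sequences used. Cd68 also had the largest difference of the 3 genes between tumour and wild type lung, and its promoter is commonly used to drive transgenes in macrophages. The stretch runs from 250 bases before to 50 bases after the gene's start, at chr11:69666121-69666420 on the minus strand of GRCm38.p6, as RefSeq gives it. Capitals mark matches to the motifs named after it.
Cd68: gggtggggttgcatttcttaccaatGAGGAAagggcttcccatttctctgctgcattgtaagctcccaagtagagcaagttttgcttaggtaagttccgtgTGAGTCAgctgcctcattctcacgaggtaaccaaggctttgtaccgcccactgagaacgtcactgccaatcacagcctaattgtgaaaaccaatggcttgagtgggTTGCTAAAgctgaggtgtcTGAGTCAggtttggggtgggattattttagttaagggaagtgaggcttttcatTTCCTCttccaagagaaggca
For this, 4 motifs were searched on both strands, and positions are counted from the gene's start. The core GAGGAA of PU.1, a transcription factor of the macrophage lineage, was matched at -225 and, on the other strand, at 30, and 28.3% of 32851 promoters of the same length hold it. The AP-1 letters TGANTCA were matched at -149 and -24, against 7.81% of promoters with a match. The C/EBP letters TTGCNNAA were matched at -43, against 10.8% of promoters. The E-box CACGTG had no match in this window, and 7.15% of promoters hold it. None of these matches overlapped. They describe the letters of this stretch and not binding, which was not measured.

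Cd68 had an intensity of 1645 in wild type lung, 14106 in tumour lung and 5553 in depleted lung. It was thus lowest in wild type and highest in tumour lung, with depleted lung between them, and it was brighter than 89.7%, 99.3% and 97.5% of probe sets on the respective arrays. Adgre1 read 641, 2829 and 1438 in the same order. Its arrays stood in the same order as those of Cd68, brighter than 77.1%, 94.4% and 88.5% of probe sets. Cd14 read 897 in wild type, 4565 in tumour and 5345 in depleted lung. Here the order of the mutant arrays was the opposite, with depleted lung highest, and the 2 readings were 1.17-fold apart. Cd14 was brighter than 82.1%, 96.7% and 97.4% of probe sets. No reading of the 3 genes was below its array's 25th percentile, so none of their folds is a lower bound. Intensities of different probe sets cannot be compared with each other. Below, each gene, or the sum over a fixed list of genes, is compared only between arrays.

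**Figure D1:**
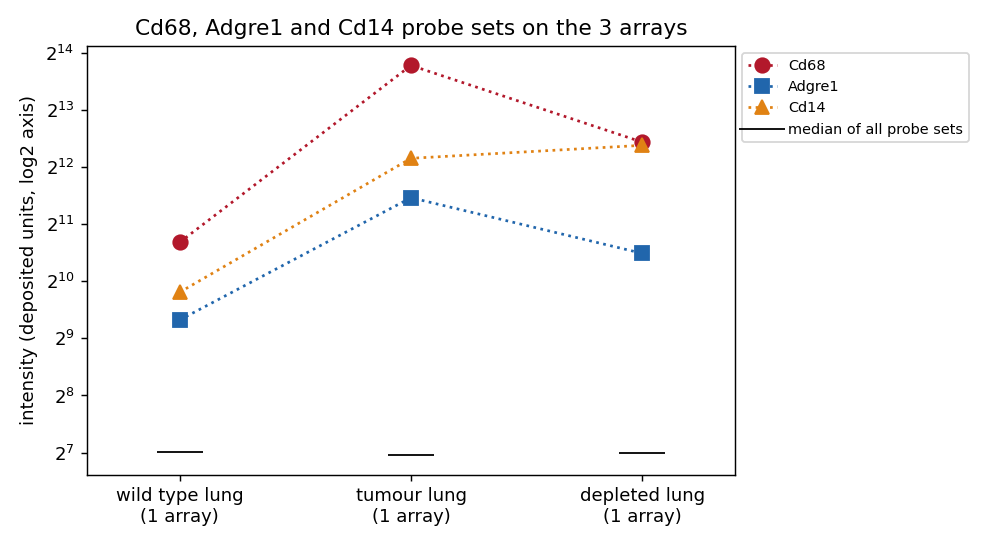
Intensity of the Cd68, Adgre1 and Cd14 probe sets (vertical axis, deposited units on a log2 axis) on the arrays of wild type, tumour and depleted lung, with 1 point per array, dotted lines joining points of a gene and black bars for the median of all probe sets. Cd68 and Adgre1 peak on the tumour array (14106 and 2829), while Cd14 reads 4565 there and 5345 on the depleted array.

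Lung with carcinoma was compared with normal lung first. The tumour lung was also of the mutant genotype, so genotype and tumour cannot be told apart in this comparison. All 3 genes were at least 2-fold higher in tumour lung, where 9.26% of the 24438 probe sets that passed the level filter were. The level filter kept a probe set if its brighter array of the pair was at or above that array's median. Because the genes were named through tables of probe sets past 2-fold, nothing is read from that count. The same holds for the shares of probe sets given for each gene, here and in the comparisons that follow, and for the counts there. Cd68 was 8.57-fold higher (log2 3.10), Cd14 5.09-fold (log2 2.35) and Adgre1 4.42-fold (log2 2.14). A larger upward difference was found in 1.46% of the filtered probe sets for Cd68, in 2.47% for Cd14 and in 2.85% for Adgre1. The authors' deposited table has ratios of 7.08, 4.55 and 4.19 for Cd68, Cd14 and Adgre1.

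Lung after macrophage depletion was then compared with tumour lung, which also compares a lung without observed tumour with a sample that held one. Cd68 was 2.54-fold lower in depleted lung (log2 -1.34), and 1 of the 3 genes was therefore past 2-fold downward, where 7.26% of 24243 probe sets were (7.7% were past it upward). Adgre1 lay just short of 2-fold, 1.97-fold lower (log2 -0.98). Cd14 was not lower, with a log2 difference of 0.23. A lower difference than that of Cd68 was found in 4.32% of the probe sets, lower than that of Adgre1 in 7.55% and lower than that of Cd14 in 63.8%. In the authors' deposited table the corresponding folds were 2.35 lower for Cd68, 1.82 lower for Adgre1 and 1.13 higher for Cd14.

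Against wild type lung, all 3 genes were at least 2-fold higher in depleted lung, compared with 6.24% of 24074 probe sets, and again nothing is read from that count. Genotype, treatment and inflammation cannot be told apart in this comparison, because the depleted lung differed from wild type lung in each. Cd14 was 5.96-fold higher (log2 2.58), Cd68 3.38-fold (log2 1.76) and Adgre1 2.24-fold (log2 1.17). The order of the genes thus differed from that in tumour lung, where Cd68 stood first. A larger upward difference was found in 0.781% of probe sets for Cd14, in 2.14% for Cd68 and in 4.79% for Adgre1. Among the other 2619 named genes that passed the level filter, 107 had a larger one than Cd14, 280 than Cd68 and 565 than Adgre1. The authors' deposited table has ratios of 5.15 for Cd14, 3.01 for Cd68 and 2.29 for Adgre1.

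Set against the difference between tumour and wild type lung, depleted lung kept 56.6% of the log2 difference of Cd68, 54.4% of that of Adgre1 and 109.7% of that of Cd14. On the linear scale of the intensities the shares were 31.4%, 36.4% and 121%. By either scale Cd68 and Adgre1 lay between the other arrays and Cd14 lay beyond the tumour array. Differences between the genes do not depend on any scaling that multiplies an array by 1 factor. From tumour to depleted lung, Cd68 moved 2.97-fold downward relative to Cd14 and Adgre1 moved 2.30-fold downward relative to Cd14, while Cd68 and Adgre1 differed from each other by 1.29-fold. From wild type to tumour lung the gap between Adgre1 and Cd14 was 1.15-fold, and Cd68 moved 1.94-fold further up than Adgre1 and 1.68-fold further than Cd14.

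The comparisons with wild type lung depended on scaling. The hybridization controls, which are labelled transcripts added to each sample before hybridization, exceeded those of wild type lung by a median log2 of 1.00 on the tumour array and 1.18 on the depleted array. With these median differences removed, all probe sets together had medians of -1.04 and -1.21 relative to wild type, and 3.33% of probe sets were higher and 55.3% lower in tumour lung, against 9.26% and 10.4% without that scaling. In depleted lung against wild type the split was 1.31% higher and 68.3% lower, against 6.24% and 6.33%. The log2 differences in tumour lung were then 2.10 for Cd68, 1.35 for Cd14 and 1.14 for Adgre1, so all 3 genes stayed past 2-fold. In depleted lung Cd14 was at 1.39, Cd68 at 0.57 and Adgre1 at -0.018, so that Adgre1 was level with wild type and the direction given above was not kept. Between depleted and tumour lung the log2 differences under that scaling were -1.53 for Cd68, -1.16 for Adgre1 and 0.044 for Cd14. With the 3' probe sets of beta-actin and Gapdh made equal they were -1.02, -0.65 and 0.56. Which scaling fits these samples was not tested.

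**Figure D2:**
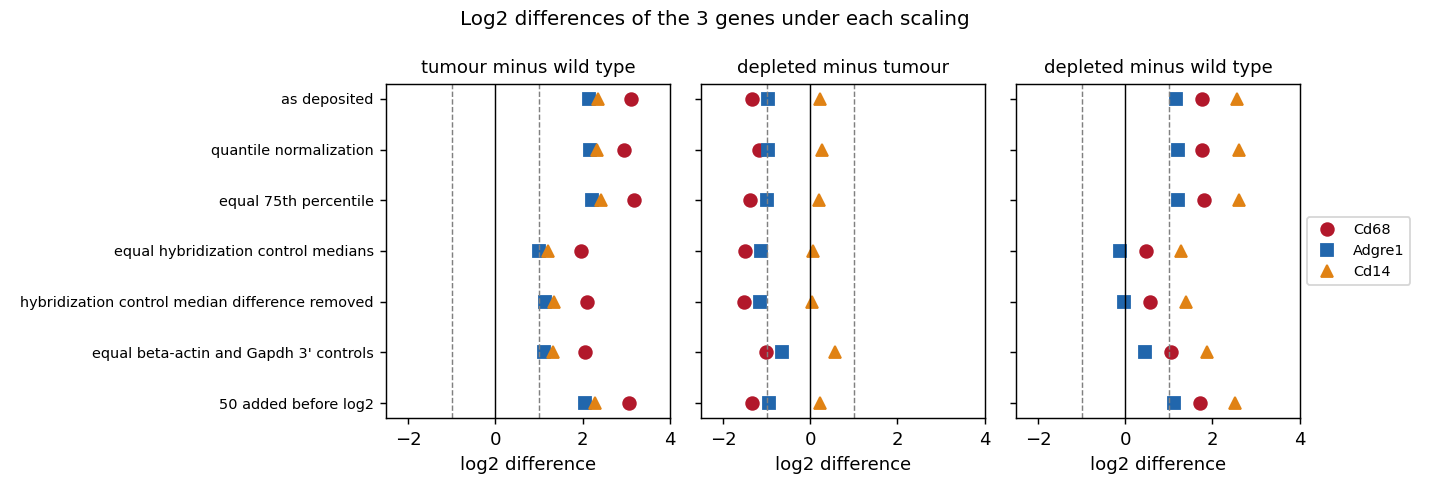
Log2 differences (horizontal axes) of Cd68, Adgre1 and Cd14 in the 3 comparisons, with 1 row for each scaling of the arrays, a solid line at no difference and dashed lines at 2-fold. In the middle panel Cd68 is lowest and Cd14 highest in every row shown, with Cd14 between 0.044 and 0.56, whereas the left and right panels shift toward 0 in the rows scaled to controls.

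The remaining genes are described by lists of other genes of the same roles, counting, in a comparison, only named genes kept by the level filter. Of all named genes, 37.6% of 2813 were past 2-fold upward in tumour against wild type lung and 38.2% downward. In depleted against tumour lung 29.5% of 2748 were past it upward and 27.4% downward, and in depleted against wild type lung 24.6% of 2622 upward and 21.1% downward. All 14 lists were measured only on genes that the deposited tables name, which differed in some comparison.

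Among other monocyte and macrophage genes, 23 of 32 were named. Of the 22 that passed the level filter, 21 exceeded wild type by 2-fold or more in tumour lung. The other was Aif1, with 523 against 262, and the median log2 difference was 2.75 (-0.11 over all named genes). Gpnmb, a glycoprotein of macrophages and pigment cells, read 438 in wild type, 21879 in tumour and 4131 in depleted lung, and Trem2, a lipid-sensing receptor of macrophages, read 68.1, 3287 and 422. Cd163, the scavenger receptor for haemoglobin-haptoglobin, read 82.0, 2266 and 101, so these 3 genes were all highest in tumour lung. Cd68 lay above 13 of these 22 genes, Cd14 above 9 and Adgre1 above 7. From tumour to depleted lung, 12 of 23 were past 2-fold downward and 1 upward, and the median log2 difference was -1.10 (0.26 over all named genes). Cd68 and Adgre1 were within 0.25 log2 of that median, and Cd14 lay 1.33 above it. Cd163 was 22.5-fold lower and Trem2 7.79-fold lower. Marco, a scavenger receptor, was the gene past 2-fold upward, and its difference was the largest of the list in this comparison. It read 8.90 in wild type, 12.1 in tumour and 1289 in depleted lung, so it was at least 36.3-fold higher in depleted than in tumour lung. That fold is a lower bound because the tumour reading was dim, as the wild type reading was too. The authors' deposited table has 21.7-fold for Marco. Among genes that were not 2-fold apart there were Tyrobp, a signalling adaptor of myeloid cells, with 12880 and 13032 in tumour and depleted lung, and Spi1, which encodes PU.1, with 714 and 947. These 2 were chosen after their values were seen. Against wild type, 20 of 22 were past 2-fold upward in depleted lung (median 1.71), and 4 of 22 were with the hybridization control difference removed.

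The neighbours of Cd68 by location are lysosomal genes, of which 15 of 26 were named. All 15 were past 2-fold upward in tumour lung (median log2 difference 1.89), and 6 of 15 were with the hybridization control difference removed. The difference of Cd68 was 1.21 above that median, and it exceeded 12 of the 15. Ctsk, a collagen-degrading cysteine protease, read 716 in wild type, 12476 in tumour and 5223 in depleted lung. Acp5, the tartrate-resistant acid phosphatase, read 519, 5071 and 2564. Atp6v0d2, a subunit of the proton pump that acidifies lysosomes, read 1108, 9561 and 3433. All of them were highest in tumour lung and intermediate in depleted lung, as Cd68 was. In depleted lung 5 of 15 lysosomal genes were 2-fold or more below tumour lung, none was as far above it, and the median was -0.92. With the hybridization control difference removed 10 of 15 were that far below. The largest differences were those of the protease genes Lgmn, 3.27-fold lower, and Ctsl, 2.60-fold lower, and of Atp6v0d2, 2.79-fold lower. Named lysosomal genes did not include Lamp1 or Lamp2, which are not analysed here.

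Adgre1 belongs to the adhesion G protein-coupled receptors, and 9 other members of 28 were named. Most of these went the opposite way to Adgre1. In tumour lung 6 of 9 were past 2-fold downward and 1 upward (median -1.21). From tumour to depleted lung 6 of 9 were past it upward and 1 downward (median 1.37). Adgre4, a close relative of Adgre1 that is also found on myeloid cells, read 581 in wild type, 731 in tumour and 2742 in depleted lung, so it was 3.75-fold higher in depleted than in tumour lung. Adgrl3, a latrophilin, read 800, 99.0 and 1140, with a drop on the tumour array only. Adgra3, an orphan receptor, read 1870, 403 and 1042. Adgrf4 was the member that was higher in tumour lung, at 128 against 8.06 in wild type and 3.83 in depleted lung, which is at least 3.68-fold above wild type and at least 3.66-fold above depleted lung. The authors' deposited tables have 2.00-fold and 2.06-fold for Adgrf4.

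Cd14 acts with TLR4, MD-2 (encoded by Ly96) and related receptors, of which 6 of 19 were named. Tlr4 read 368 in wild type, 605 in tumour and 352 in depleted lung, and Ly96 read 252, 629 and 357. Neither had the high reading in depleted lung that Cd14 had. Of the 6 genes, 4 were past 2-fold upward in tumour lung, among them Tlr1, the partner of TLR2 for bacterial lipoproteins, 3.76-fold, the integrin chain Itgb2 3.60-fold and Ly86, which encodes the MD-1 protein bound to RP105, 3.03-fold. None of these 6 was past 2-fold upward with the hybridization control difference removed. Between depleted and tumour lung only Irak3, which encodes an inhibitor of TLR signalling, was 2-fold apart among these 6 genes, at 830 against 380, and the authors' deposited table puts it at 1.92-fold. With the hybridization control difference removed none of the 6 was past 2-fold upward there and 1 was past it downward. Without that scaling the median of the 6 genes there was -0.49, against 0.23 for Cd14, and with it the values were -0.67 and 0.044.

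Of genes that lipopolysaccharide and related stimuli induce, 16 of 20 were named. Compared with wild type, 13 of 16 were past 2-fold upward in tumour lung and none downward (median 3.05). Compared with tumour lung, 4 were past it upward in depleted lung and 3 downward (median 0.28, against 0.26 over all named genes and 0.23 for Cd14). Over all named genes 29.5% were past it upward and 27.4% downward, so nothing particular to this list is read from these counts. Clec4e, a receptor for mycobacterial glycolipids, read 127 in wild type, 254 in tumour and 2728 in depleted lung, and Il1b, the cytokine interleukin-1 beta, read 467, 770 and 3260. Both were highest in depleted lung. Il1rn, the interleukin-1 receptor antagonist, read 226, 2764 and 714 and was highest in tumour lung. The acute phase gene Saa3 read 145, 14812 and 12239, with both mutant arrays far above wild type as for Cd14. Against wild type, 13 of 14 were past 2-fold upward in depleted lung, and 8 of 14 were with the hybridization control difference removed.

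Growth factors, attractants and receptors that bring monocytes into tissue and keep macrophages alive had 11 of 18 genes named. Of these, 10 of 11 were past 2-fold upward in tumour lung (median 2.85). The exception was Csf2, the granulocyte-macrophage growth factor, at 168 against 146. Depleted lung was past 2-fold below tumour lung for 7 of 11 and above it for 2 (median -1.47). The largest differences were in attractants of monocytes, with Ccl7 11.7-fold and Ccl8 4.49-fold lower, against 2.54-fold for Cd68, and Ccl12 at 316 against 3166. The 2 that were higher were Csf3r, the receptor for the granulocyte growth factor, at 1879 against 845, and Csf2, at 462 against 168. Csf1r, the receptor for the main macrophage growth factor, is not analysed here.

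Genes of other leukocytes were read beside these markers. Of the pan-leukocyte genes, which all white blood cells share, all 14 were named. Ptprc, which encodes the CD45 antigen, read 3876 in wild type, 6284 in tumour and 11415 in depleted lung, highest in depleted lung. Of the list, 10 of 14 were past 2-fold upward in tumour lung (median 1.26), against 1 of 14 (median 0.26) with the hybridization control difference removed, and the differences of Cd68, Cd14 and Adgre1 all exceeded those of every gene in this list. From tumour to depleted lung the list had a median of 0.55, and no gene of it was past 2-fold downward. The differences of Cd68 and Adgre1 were below those of all 14 genes, 1.89 and 1.52 log2 below the median, and that of Cd14 exceeded 5 of them and was 0.32 below it. Between depleted and wild type lung the median was 1.78. Cd14 lay above all 14 genes, Cd68 above 7 and Adgre1 above 1. All 14 were past 2-fold upward there, and 1 of 14 was with the hybridization control difference removed.

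Neutrophil genes, of which 15 of 19 were named, had a summed intensity of 13008 in wild type, 83611 in tumour and 116019 in depleted lung. None was listed at 0, and 1 on the wild type array and 1 on the tumour array were below the 25th percentile. Most of each sum came from S100a8, S100a9, Lcn2 and Chil1. S100a8 read 2272, 16086 and 37994 in the same order, and S100a9 read 1614, 14352 and 29866. Lcn2 read 1707, 25803 and 18055 and Chil1 read 2354, 22346 and 14431, so both were highest in tumour lung. Depleted lung exceeded tumour lung by 2-fold or more for 9 of 15, and 1 went the other way to that extent (median 1.15). Fpr1 and Fpr2, receptors that guide neutrophils to bacterial peptides, read 2253 and 5556 in depleted lung against 105 and 279 in tumour lung. In wild type lung they read 592 and 1328, so both were lower in tumour than in wild type lung. Of the 13 neutrophil genes that passed the level filter there, they were the 2 past 2-fold downward, and 8 were past it upward. Neutrophils can carry CD14, and the part of these cells in the Cd14 readings was not tested. Of 11 named T cell genes 8 were past 2-fold upward from tumour to depleted lung, and the summed intensities were 2618, 6131 and 14473. Of 10 named B cell genes 7 were past it upward and 1 downward, and the summed intensities were 4582, 16229 and 14121, of which Jchain, the joining chain gene of plasma cells, made up 1145, 11665 and 5102. Dendritic cell genes, 5 of 11 named, summed to 1297, 1758 and 5145. The only named gene of 10 for eosinophils, which also carry ADGRE1, was Prg2, a granule protein, with 36.3, 91.6 and 211 in wild type, tumour and depleted lung.

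The tumour itself also separated the arrays. Squamous epithelium genes, 19 of 20 named, summed to 2100 in wild type, 94274 in tumour and 1669 in depleted lung, and 10 of 19 were below the 25th percentile on each of the arrays other than that of tumour lung. Presence of tumour and macrophage depletion cannot be told apart in the comparison of the mutant arrays. Xist read 188, 15608 and 133, and the Y-linked genes Eif2s3y (1341, 11.4 and 1467) and Ddx3y (2510, 5.61 and 3188) went the opposite way. The tumour lung thus read as female and the other two as male, and sex and tumour cannot be told apart in either comparison with tumour lung. The ratio of the 3' to the 5' probe set of beta-actin, a measure of RNA integrity, was 1.30, 1.33 and 1.41 in wild type, tumour and depleted lung, and that of Gapdh was 1.06, 0.79 and 0.97. Of alveolar macrophage genes 11 of 15 were named. From wild type to tumour lung 5 of 10 were past 2-fold upward and 4 downward, against 37.6% and 38.2% of all named genes. From tumour to depleted lung the counts were again 5 and 4 of 10, against 29.5% and 27.4%. Nothing particular to this list is read from these counts. With the hybridization control difference removed the counts from wild type to tumour lung were 2 upward and 5 downward, with a median of -0.48.

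**Figure D3:**
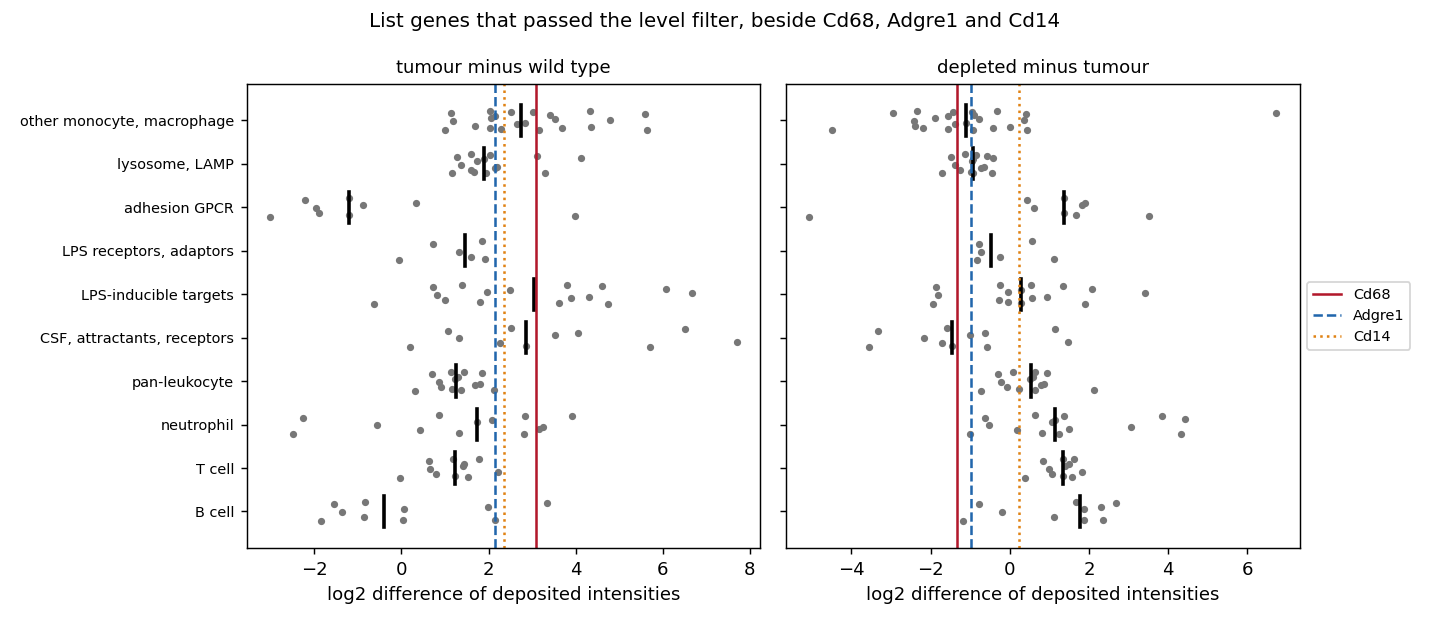
Log2 differences of list genes (grey points, 1 per gene that passed the level filter) with the list median (black bar), for tumour minus wild type and depleted minus tumour lung, beside vertical lines for Cd68, Adgre1 and Cd14. In the right panel Cd68 (-1.34) and Adgre1 (-0.98) run near the macrophage and lysosome medians of -1.10 and -0.92. Cd14 (0.23) runs near the median of the lipopolysaccharide-inducible targets (0.28). The median of all named genes (0.26) is not drawn.

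The genes with the nearest pattern were sought among 1982 named genes whose brightest array was at or above the 75th percentile. Nearness was the distance between the log2 differences from wild type in tumour and depleted lung, over 3 arrays, and is a description only. The 5 nearest to Cd68 were C1qc and C1qb, which encode chains of the complement component C1q made by macrophages, the lysosomal pump gene Atp6v0d2, the myeloid receptor gene Cd300lb and Itih4, an acute phase gene. C1qc, at a distance of 0.074 log2, read 630, 5666 and 2084 in wild type, tumour and depleted lung. Among the 5 nearest to Adgre1 were Cxcr6, a chemokine receptor gene of T cells, Man1a, a Golgi mannosidase gene, the lysosomal protease gene Ctss and Gm3579. The 5 nearest to Cd14 included no gene of the macrophage list. They were Bcl3, an atypical inhibitor of NF-kB, Icos, a co-stimulatory receptor of T cells, Ly6i, the proliferation marker Mki67 and Socs3, a feedback inhibitor of cytokine signalling. Bcl3, at 0.13 log2, read 181, 846 and 1044. The distances between the 3 markers were 1.12 between Cd68 and Adgre1, 1.11 between Cd68 and Cd14 and 1.42 between Adgre1 and Cd14. The 5 nearest genes were picked for small distances, so nothing is read from the marker distances being larger. To Cd68, 118 genes lay nearer than Adgre1 and 115 nearer than Cd14. To Adgre1, 327 lay nearer than Cd68 and 478 nearer than Cd14. To Cd14, 118 lay nearer than Cd68 and 189 nearer than Adgre1.

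**Figure D4:**
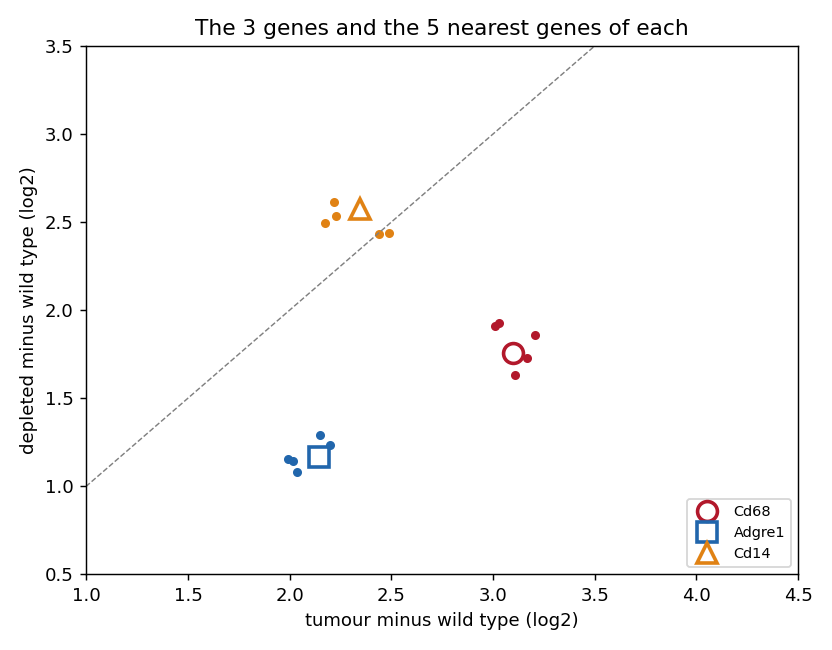
Log2 difference from wild type in tumour lung (horizontal axis) and depleted lung (vertical axis) for Cd68, Adgre1 and Cd14 (open symbols) and the 5 nearest genes of each (small points in the same colour), with a dashed line where both differences are equal. Cd14 lies above that line (2.35 and 2.58), and Cd68 (3.10 and 1.76) and Adgre1 (2.14 and 1.17) lie below it.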

How the data were processed

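Total RNA of lung tissue from 3 mice was labelled with biotin and hybridised to 1 Affymetrix array each, per the labels' protocols. For tumour lung that tissue was carcinoma mixed with neighbouring tissue. The authors deposited a linear intensity for each probe set and array. The sources used here do not say how they were summarised and scaled. The submitters' processing notes name Partek. Array medians were close, at 128, 124 and 127. The authors also deposited 3 comparison tables that give a linear ratio for every pair of arrays, per the file headers. All values in the results are from the intensities, as log2 without added scaling, except where the authors' deposited table is named.

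Of 4310 listed probe sets 3858 had 1 gene symbol, 180 several and 238 none, and 34 were controls. Symbols were updated through the RefSeq gene table of GRCm38.p6 (3661 by accession, 66 by symbol, 42 by older symbol), and 89 kept the file's name. Cd68, Adgre1 and Cd14 had 1 listed probe set each. List genes took the listed probe set with the highest mean. A fold with the dimmer array below its 25th percentile was computed against that percentile as a lower bound. A call is a difference of at least 2-fold. No p-value was computed. Per list, the genes named were the 3 furthest apart among those past 2-fold in each of the first 2 comparisons, with Tlr4, Ly96 and Ptprc in any case, and the 5 nearest patterns per marker. Others are given where a count of 5 or fewer refers to them. Not every gene or list that the rule covers is described, and some items are not reported here. The markers and lists were chosen with earlier results of these data known. Promoters were from RefSeq (GRCm38.p6), whose table matched 1 of the 3 genes. Planted differences in simulated data were used to check the steps. Python 3.11.15, numpy 2.4.6, pandas 2.3.3 and matplotlib 3.10.9 were used.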

Additional observations from a re-analysis of the deposited data

How the results depend on the processing

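The 9 log2 differences of Cd68, Adgre1 and Cd14 were recomputed under every setting named here, and the 3 shares under quantile normalization, the authors' deposited ratios and removal of the hybridization control median difference. A value is given here where it moved by over 1.5-fold, crossed 2-fold or changed sign. No difference did under an added offset of 50, and no difference or share did under quantile normalization or the authors' deposited ratios. With equal 75th percentiles Adgre1 crossed 2-fold between depleted and tumour lung (-1.003), as it did with equal medians of the hybridization controls (-1.13) and with their median difference removed (-1.16). For tumour against wild type lung, equal control medians gave 1.97 for Cd68, 1.01 for Adgre1 and 1.22 for Cd14, removal of the median difference gave 2.10, 1.14 and 1.35, and equal beta-actin and Gapdh 3' probe sets gave 2.07, 1.11 and 1.31. For depleted against wild type lung the same 3 settings gave 0.47, 0.57 and 1.05 for Cd68, and 1.29, 1.39 and 1.87 for Cd14. For Adgre1 they gave -0.12, -0.018 and 0.46, so its direction turned under both control scalings. With the median difference removed, the share of the log2 difference kept in depleted lung was 27.2% for Cd68 and -1.54% for Adgre1. These scalings shift all probe sets of an array by 1 amount. Of 588 list counts recomputed, 502 stayed within 1.5-fold and 86 did not. Other probe sets of the 3 genes were not run, because each had 1 listed. No paired analysis was possible because each group had 1 array. The number of arrays limits the precision, and the noise of an array was not measured.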
